A study of Mus musculus with 3 samples.

Results

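The regions described here are stretches of H3K4me3 chromatin 6 to 9 kb wide in mouse pro-B cells, 1708 of the 18461 H3K4me3 regions found in the library. They were chosen on the H3K4me3 reads alone. Reads were moved 75 bp in the 3-prime direction and counted in 1 kb bins of the mm9 genome. Bins with 25 or more reads were called, called bins were joined across at most 1 uncalled bin, and joined regions of 6 to 9 bins were kept. The number, width and H3K4me3 level of these regions therefore follow from the rule and are given as a description. The other libraries played no part in the choice.

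The study mapped 3 histone H3 states by ChIP-seq, with 1 library per antibody and no replicate. One antibody was directed at arginine 2 dimethylated symmetrically (H3R2me2s), another at tails that carry this mark and trimethylated lysine 4 at once (H3R2me2sK4me3, here the combined mark), and the other at H3K4me3. Per the labels, the submitting laboratory made both antibodies to arginine-methylated tails and obtained the one to H3K4me3 from Abcam. How specific each antibody is was not tested here. All libraries came from RAG2-/- Abelson-transformed pro-B cells, of a strain the labels spell C57BL/7, grown on uncoated plastic in RPMI1640 medium with serum. The pro-B stage comes early in the B lineage, the Abelson virus keeps them dividing in culture, and without RAG2 they cannot assemble antigen receptor genes. A line of transformed cells stands in for normal pro-B cells, all libraries share the genotype, and neither genotype nor cell type was checked in the reads. No library of input DNA was used here, so local differences in how well DNA shears, amplifies or maps were not removed.

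H3K4me3 marks the nucleosomes around the starts of active genes and usually forms a sharp peak of a few nucleosomes. At some genes it spreads over several kilobases into the body of the gene, and such wide regions are known from other work to favour genes that are highly or steadily transcribed, among them genes that define a cell type. Arginine 2 lies close to lysine 4 on the same histone tail. Its asymmetric dimethylation is known to oppose H3K4me3, while the symmetric form is known to be bound by WDR5, a subunit of the complexes that methylate lysine 4. The comparison below asks how far H3R2me2s and the combined mark fill a wide H3K4me3 region. Gene names are not given, because no gene annotation of mm9 was used here, and no sequence is printed for the same reason.

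The H3R2me2s library held 6923765 reads, that for the combined mark 7128852 and that for H3K4me3 13898471. Background was taken from bins with no call within 5 kb, whose means were 2.35, 1.86 and 2.98 reads in the same order. A level below is the mean number of reads per bin divided by the background of that library. Bins were called for H3R2me2s at 15 reads and for the combined mark at 16. With 1 library per antibody no test between antibodies was possible. Intervals of shares of regions or bins and of ratios of single regions are exact 95% binomial intervals. Those of ratios cover counting error of reads only. Those of shares take regions or bins as independent draws. Bins of a region lie side by side and are not independent, so intervals of shares of bins are too narrow. PCR copies of one fragment cannot be recognised without molecular identifiers and would make all these intervals too narrow. Intervals of the median outer-bin shares are 95% intervals from the ordered values of members. They cover the spread between members, taken as independent. Within members, reads sharing both position and strand with an earlier read were 6.29% of H3R2me2s reads, 4.63% of combined-mark reads and 13.0% of H3K4me3 reads, against 5.22%, 2.64% and 6.20% of all reads.

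The 1708 regions made up 9.25% of all H3K4me3 regions, and they held 19.9% of all called H3K4me3 bins in 11744 bins. These bins are 0.514% of the bins with a read, and they took 10.98% of the H3K4me3 reads, 9.27% of the combined-mark reads and 4.41% of the H3R2me2s reads. Narrow members were the most frequent, with 823 of 6 kb, 441 of 7 kb, 277 of 8 kb and 167 of 9 kb. In 1180 of them every bin was called for H3K4me3, and 465 held 1 uncalled bin, 60 held 2 and 3 held 3. The 594 uncalled bins had mean levels of 5.58 times background for H3K4me3, 3.68 for the combined mark and 2.69 for H3R2me2s. The regions were often close to other H3K4me3 chromatin. The nearest other region lay at a median of 12 kb, 475 members (27.8%) had one within 5 kb, and 208 had none within 50 kb.

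Across members the H3K4me3 level ran from 7.89 to 123 times background with a median of 41.5 (quartiles 29.9 and 55.4). The combined mark had a median of 28.5 (18.6 and 40.0) and ran from 2.24 to 105. H3R2me2s had a median of 10.3 (7.29 and 14.0) and ran from 2.18 to 35.6. At the lower edge of the rule, regions of 5 kb had medians of 41.8, 29.0 and 10.4 for H3K4me3, the combined mark and H3R2me2s, and members of 6 kb had 43.1, 29.3 and 10.5. At the upper edge, members of 9 kb had 39.2, 24.8 and 9.67 and regions of 10 kb had 42.9, 29.2 and 10.7. From 5 to 6 kb the medians moved little, and from 9 to 10 kb they were higher for each mark.

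**Figure D1:**
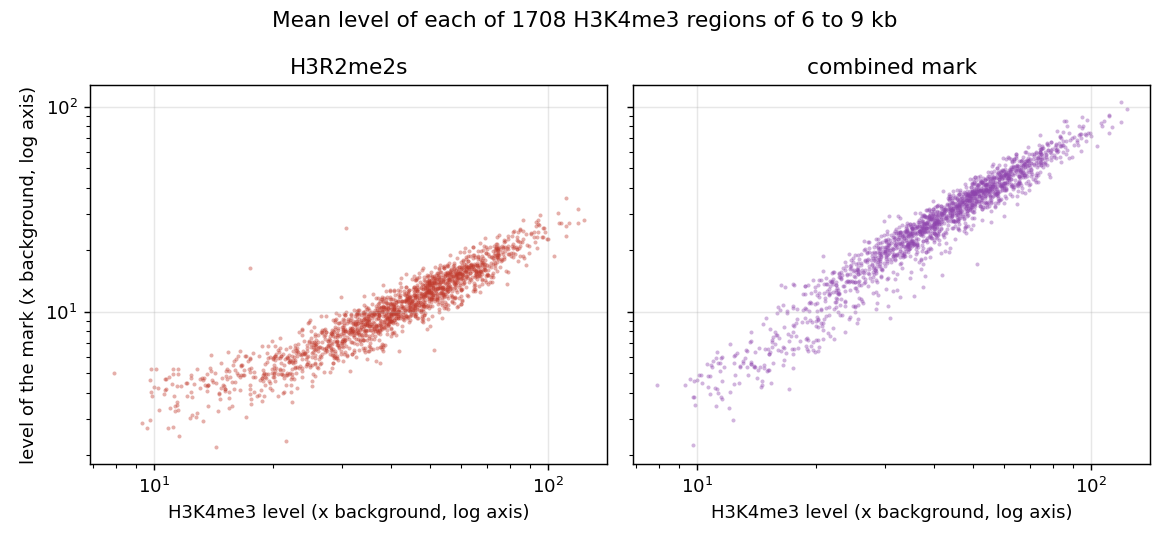
Mean level of H3R2me2s (left) and of the combined mark (right) against that of H3K4me3 in each of the 1708 regions, in multiples of background on log axes, with 1 point per region. Both were higher where H3K4me3 was higher, the median level over the weakest and strongest of 4 classes by H3K4me3 going from 5.65 to 16.5 for H3R2me2s and from 11.9 to 48.7 for the combined mark.

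H3R2me2s and the combined mark were each called in nearly all of these regions. At least 1 bin was called for H3R2me2s in 1676 of 1708 (98.1%, 97.4 to 98.7), where the share over all H3K4me3 regions was 63.2%. The combined mark was also called in 1676 regions, where the share over all was 68.4%. Regions of nearby widths had similar shares, so this was not particular to members. For H3R2me2s and the combined mark they were 97.3% and 98.0% at 5 kb, and 99.8% and 99.5% at 10 kb or more. Regions of 1 kb had 15.2% and 20.8%. Since a wide region offers more bins for a call, shares of bins are the closer comparison. Of the bins of members, 50.5% had an H3R2me2s call (49.6 to 51.4) and 60.3% a combined-mark call (59.4 to 61.2). Over the bins of all H3K4me3 regions the shares were 45.6% and 57.1%. Restricted to bins called for H3K4me3, members had H3R2me2s calls in 53.0% (52.1 to 54.0) and combined-mark calls in 63.3% (62.4 to 64.2), where all such bins had 46.8% and 58.6%. In regions of 2 to 5 kb, 47.8% and 61.2% of bins were called, and in regions of 10 kb or more, 49.5% and 58.0%. In regions of 5 kb alone the shares were 51.9% and 63.8%, above those of members. Under limits of 8 times the mean in every library, members numbered 536.

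Calls of neither mark filled the regions. A member had a median of 3 bins called for H3R2me2s and 4 for the combined mark. The rule requires an H3K4me3 call in both end bins, and the other libraries held fewer reads. A bin without a call is therefore not shown to lack the mark. In the bin just inside the edge the mean level was still 4.86 times background for H3R2me2s and 9.11 for the combined mark. H3R2me2s was called in every bin of 11 members and the combined mark in every bin of 64. The combined mark covered more bins than H3R2me2s in 944 members, the same number in 577 and fewer in 187. The bins called for H3R2me2s formed a single run in 1112 members and 2 runs in 528. Those of the combined mark formed a single run in 1225 and 2 runs in 434. Of the 11744 bins, 5490 (46.7%) were called for all 3 marks, 1567 for H3K4me3 and the combined mark, 424 for H3K4me3 and H3R2me2s, and 3669 (31.2%) for H3K4me3 alone. The bins shared by both arginine marks were 92.6% of the 5929 H3R2me2s bins and 77.5% of the 7080 combined-mark bins.

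**Figure D2:**
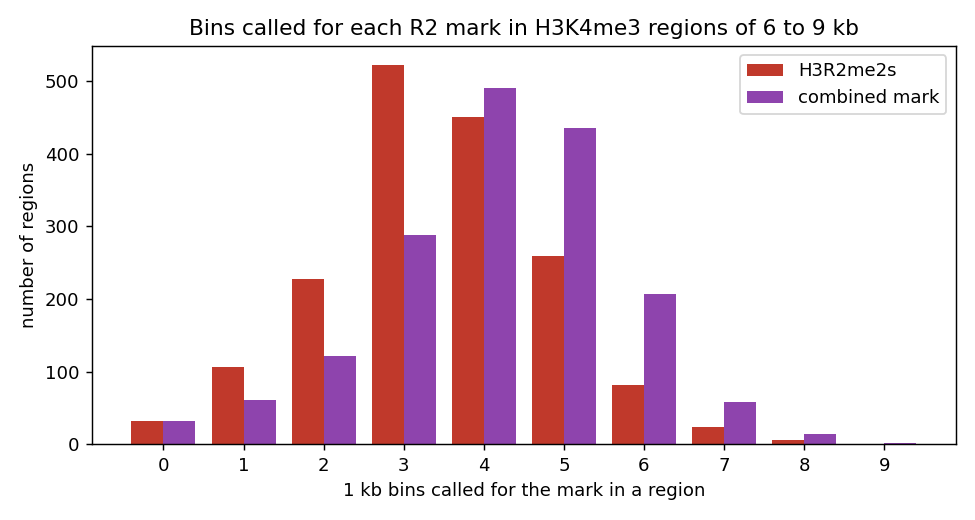
Number of regions (vertical axis) with 0 to 9 bins of 1 kb called for H3R2me2s (red) or for the combined mark (purple). H3R2me2s was most often called in 3 bins (522 regions) and the combined mark in 4 (490 regions), while 32 regions had no called bin of H3R2me2s and 32 none of the combined mark.

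End bins had calls less often than interior bins. Of the 3416 end bins 20.7% had an H3R2me2s call and 31.1% a combined-mark call, and of the 8328 interior bins 62.7% and 72.3%. End bins made up 46.6% of the bins without an H3R2me2s call and 50.5% of those without a combined-mark call. The first and the last bin together held a median of 10.7% of the net H3K4me3 reads of a member (10.3 to 11.2), where net means less background. For H3R2me2s the median share was 10.6% (10.3 to 11.0), and for the combined mark it was 6.99% (6.72 to 7.47). The combined mark had the smaller share of the pair in 1294 members when set beside H3R2me2s and in 1473 when set beside H3K4me3. With the background taken from each member's own surroundings, described below, the medians were 9.87%, 8.24% and 5.94%, and the combined mark had a smaller share than H3R2me2s in 1102 members. An end bin was called for H3R2me2s in 633 members and for the combined mark in 905. Both end bins were called in 73 and 156 members.

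Signal fell steeply across the edge. The bin just inside the edge had mean levels of 17.8 for H3K4me3, 9.11 for the combined mark and 4.86 for H3R2me2s. The rule keeps the first 2 bins outside free of an H3K4me3 call. In the same order, the first had 4.91, 3.12 and 2.61 and the second 3.70, 2.54 and 2.34. Further out the levels rose, from 3.68, 2.50 and 2.31 in the third bin to 5.04, 3.49 and 2.58 in the fifth. Within the first 2 bins on either side, H3R2me2s was called beside 99 members (5.80%) and the combined mark beside 20 (1.17%). Over the genome 1.23% of bins had an H3R2me2s call and 1.45% a combined-mark call. Those genome-wide calls lay mostly in H3K4me3 bins, with 26209 of 28193 for H3R2me2s and 32848 of 33137 for the combined mark. The rule bars H3K4me3 calls from the flanking bins, so few calls could be met there and the genome-wide shares are no measure for them. Up to 4 bins were examined per member, so that these shares of members are not on the scale of the shares of bins.

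Within the regions the 3 marks peaked together. The bin with most H3K4me3 reads had median levels of 106 for H3K4me3 (quartiles 71.2 and 144), 80.1 for the combined mark (48.4 and 117) and 25.9 for H3R2me2s (15.3 and 36.9). The combined mark was highest in that same bin in 1441 members (84.4%), 1 kb away in 171 and 2 kb or more away in 96. H3R2me2s was highest there in 1325 (77.6%), 1 kb away in 223 and 2 kb or more away in 160. H3R2me2s and the combined mark shared their highest bin in 1412 members (82.7%). H3R2me2s had fewer reads than the combined mark in these bins, so its highest bin is placed with less precision.

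In most regions the highest H3K4me3 bin was off centre. This bin lay nearer to one end in 1570 members, with medians of 4 bins on the long side and 2 on the short side, and it was an end bin in 58. Comparing 3 bins on each side of it in those 1570 members, the long side had more reads in 1261 for H3K4me3, in 1183 for the combined mark and in 1183 for H3R2me2s. With a median of 2 bins on the short side, the outermost of its 3 bins often lay outside the region, where the rule allows no H3K4me3 call next to the edge, so these counts are a description that the choice of long side in large part sets. Summed over these members, the long side held 1.83 times the H3K4me3 reads of the short side, 1.97 times the combined-mark reads and 1.68 times the H3R2me2s reads. Background reads pull such a ratio toward 1, most of all for H3R2me2s. When members were instead cut at their midpoint, 408 had 75% or more of their H3K4me3 reads at one end. In these the combined mark was heavier at the same end in 408 and H3R2me2s in 407. In the 581 members whose heavier end held under 60% of the H3K4me3 reads, the combined mark leaned to the same end in 450 and H3R2me2s in 416.

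**Figure D3:**
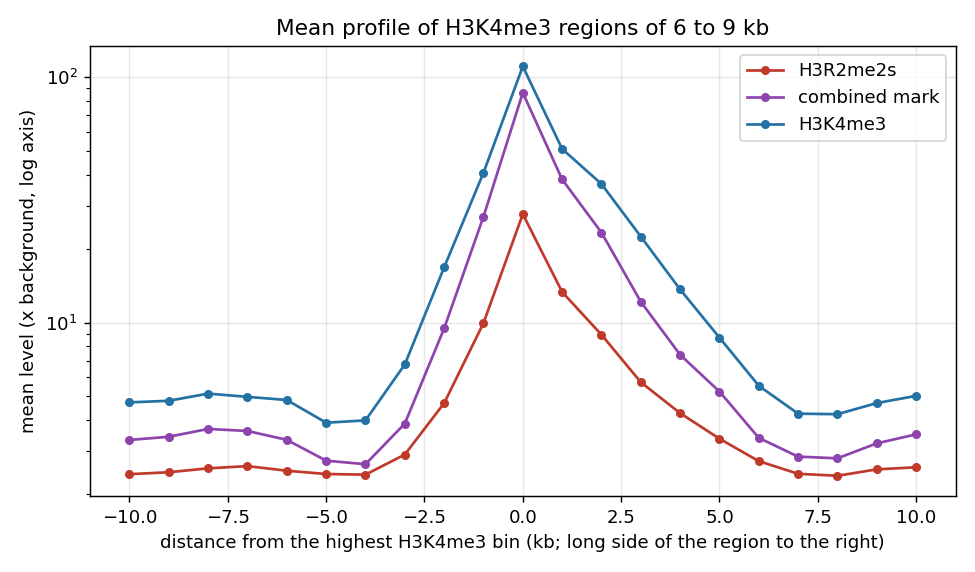
Mean level of each mark in 1 kb bins to 10 kb on either side of the highest H3K4me3 bin of the 1708 regions, in multiples of background on a log axis, turned so that the long side of each region is on the right. From the centre to 3 kb along the long side, H3K4me3 went from 111 to 22.4, the combined mark from 86.5 to 12.2 and H3R2me2s from 27.7 to 5.72, and at 3 kb on the short side they were at 6.76, 3.88 and 2.90.

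The combined mark thinned out from the strongest to the weaker H3K4me3 bins of a region faster than either H3R2me2s or H3K4me3. To measure this, the bins of each member were ranked by H3K4me3 reads, and the net signal of each mark was summed over members at ranks 1 to 6. The ranks follow reads and not position, so a bin of rank 6 need not be an end bin. The surroundings of members were themselves above the genome-wide background. In bins 3 to 10 kb outside the edges that were called for no mark, the mean was 2.63 times background for H3K4me3, 2.06 for the combined mark and 2.02 for H3R2me2s. This local mean, taken for each member over a median of 15 bins, was subtracted. In these net levels the combined mark per H3R2me2s was 3.29, 3.25, 3.11, 2.92, 2.56 and 2.29 from rank 1 to rank 6. Neither library had a part in choosing or ranking the bins. Over the 19 autosomes rank 1 ran from 3.17 to 3.50 and rank 6 from 1.902 to 2.91, and rank 1 was higher than rank 6 on 19 of 19. The autosomes are parts of the same libraries and do not stand for replicates. With the genome-wide background subtracted instead, the ratio fell from 3.20 to 1.86, a larger fall in the same direction.

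In single members the gradient was less uniform. A net value above 0 could be had for all marks, in the 2 highest bins and in the rest, in 1696 members. The combined mark per H3R2me2s was higher in the 2 highest bins than in the rest in 1172 of these (69.1%). The combined mark per H3K4me3 was higher there in 1427 (84.1%), and H3R2me2s per H3K4me3 in 1073 (63.3%).

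Set against H3K4me3, the combined mark fell from 0.781 at rank 1 (autosomes 0.748 to 0.796) to 0.442 at rank 6 (0.378 to 0.501). With the genome-wide background the values were 0.779 and 0.471. H3R2me2s per H3K4me3 moved less, and its direction depended on the background. With the local background it was 0.238 at rank 1, 0.191 at rank 4 and 0.193 at rank 6, and rank 1 was higher than rank 6 on 19 of 19 autosomes. With the genome-wide background it went from 0.243 through 0.216 at rank 4 to 0.253 at rank 6, and rank 1 was higher on 6 of 19. H3K4me3 was used for the ranking and so is favoured at rank 1. With bins ranked on the reads of every other line of the H3K4me3 file and measured on the remaining lines, the fold from rank 6 to rank 1 was 1.27 for H3R2me2s per H3K4me3 and 1.82 for the combined mark per H3K4me3, beside 1.23 and 1.77 with all reads. With repeated reads counted once these folds were 1.38 and 1.94.

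The same gradient was seen at other widths. In regions of 10 kb or more the combined mark per H3R2me2s, with local background, went from 3.40 at rank 1 to 2.76 at rank 6, and in regions of 5 kb from 3.29 at rank 1 to 2.32 at rank 5. A wider region has more bins below rank 6, so these values are not matched for position within the region. Under limits of 8 times the mean, where the sixth bin of a member is itself strong, the fold from rank 6 to rank 1 was 1.19 in place of 1.44.

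**Figure D4:**
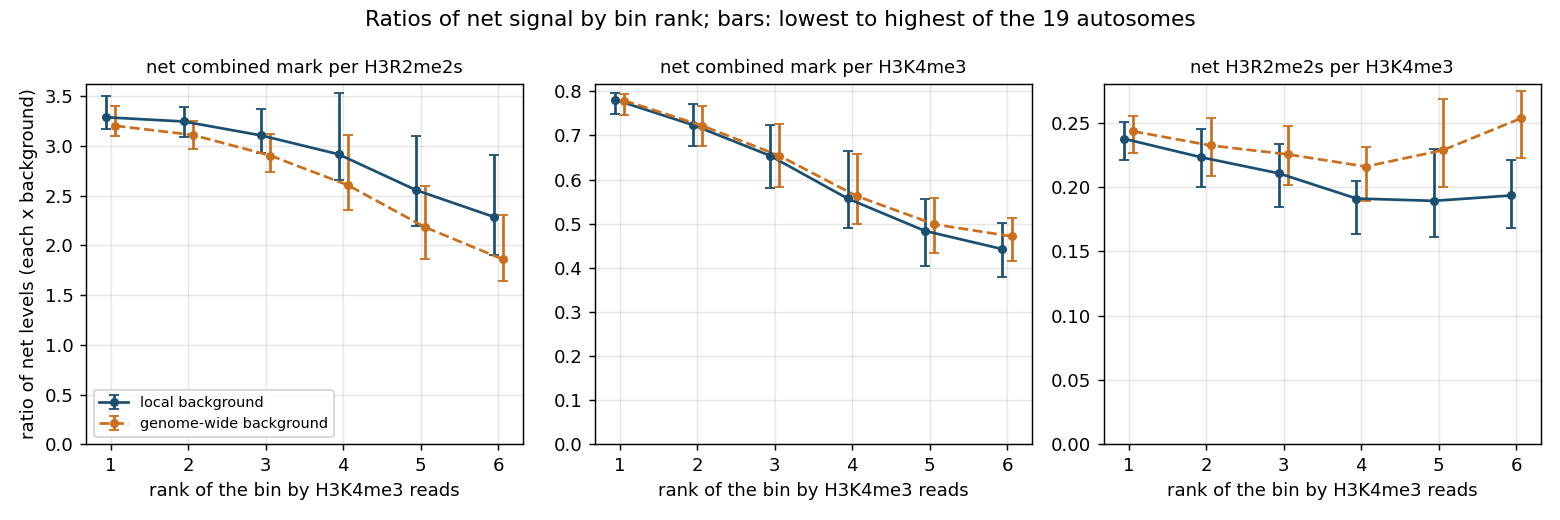
Ratios of net signal, each mark in multiples of its background, for the bins of the 1708 regions ranked from highest (1) to 6th by H3K4me3 reads, with local (blue, solid) or genome-wide (orange, dashed) background subtracted. Points are sums over regions and bars run from the lowest to the highest of 19 autosomes. The combined mark per H3R2me2s fell from 3.29 to 2.29 with local background, and H3R2me2s per H3K4me3 ended below its start with local background (0.193 against 0.238) and above it with genome-wide background (0.253 against 0.243).

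Members also differed from each other along the same line. In 4 classes of rising H3K4me3 level (426 to 428 members each), the net combined mark per net H3R2me2s was 2.60, 3.08, 3.18 and 3.23 with local background. The net combined mark per net H3K4me3 rose from 0.525 to 0.741 and net H3R2me2s per net H3K4me3 from 0.202 to 0.229. With genome-wide background the last ratio stayed between 0.229 and 0.239. The members without a called bin were all in the weakest class, with 394 of 426 called for H3R2me2s and 394 of 426 for the combined mark. In that class 31.6% of bins had a call of H3R2me2s and 39.7% one of the combined mark, and in the strongest class 64.9% and 74.3%.

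The shape of the H3K4me3 signal sorted out a small group of flat regions. Bins with at least 50% of the reads of a member's highest bin were taken as its core. The core was 1 bin in 379 members, 2 in 678, 3 in 438, 4 or 5 in 187 and 6 or more in 26. The 26 flat members were weak, with median levels of 11.8 for H3K4me3, 4.87 for the combined mark and 4.76 for H3R2me2s. H3R2me2s was called in 22 of them and the combined mark in 14. Their net combined mark per net H3R2me2s was 1.55, where the other core widths lay between 3.07 and 3.16. These members were grouped by H3K4me3 shape, and their low level goes with that shape, so that shape and level cannot be told apart here.

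In 516 members (30.2%) the core fell into 2 separate runs of bins, as where a pair of peaks lies within 9 kb. The valley between them was also seen in the other libraries. Mean levels of H3R2me2s were 23.7 at the higher peak, 7.12 in the lowest H3K4me3 bin between the peaks and 15.8 at the lower peak. Those of the combined mark were 73.2, 17.6 and 46.7. The valley bin was below both peaks in 473 members for the combined mark (91.7%) and in 443 for H3R2me2s (85.9%). H3K4me3 itself, which chose the positions, had 97.0, 20.8 and 68.2. Regions of this kind had much the same ratios as those with a single core, at a net combined mark per net H3R2me2s of 3.11 and 3.14.

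The ratio of reads between libraries varied over members by more than counting alone gives. Reads divided by the total reads of the library give the CPM scale. On that scale H3R2me2s had a median ratio to H3K4me3 of 0.403 (quartiles 0.366 and 0.441), the combined mark one to H3K4me3 of 0.827 (0.724 and 0.911) and H3R2me2s one to the combined mark of 0.480 (0.438 and 0.541). The medians were 0.399, 0.753 and 0.515 in regions of 2 to 5 kb and 0.397, 0.806 and 0.483 in regions of 10 kb or more. The antibodies were not calibrated against each other, so these ratios are not shares of marked tails. On the log2 scale the SD over members was 0.24, 0.31 and 0.37 in the same order, where counting alone gives 0.13, 0.11 and 0.15. Scaled to background reads in place of all reads, the medians were 0.254, 0.679 and 0.369.

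Members stood far from the typical region less often than all tested regions did, except for high ratios of H3R2me2s to the combined mark. Of all H3K4me3 regions with 100 or more reads in the pair of libraries, 3.94% had an H3R2me2s to H3K4me3 ratio 1.5-fold or more above their median of 0.396 and 3.47% had one 1.5-fold or more below. Among members 31 of 1708 (1.81%) were above and 9 (0.527%) below. For the combined mark to H3K4me3, 3 members were above and 112 (6.56%) below, against 0.361% and 13.4% of regions. For H3R2me2s to the combined mark, 164 of 1700 members (9.65%) were above and 0 below, against 6.23% and 0.764% of regions. Ratios of regions with fewer reads are spread more by counting, and the part this has in these shares was not tested.

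The 5 members with most H3K4me3 reads were strong in all libraries. The region at chr2:58005001-58014000 had 3190 reads of H3K4me3, 1414 of the combined mark and 571 of H3R2me2s. Its 9 bins held 34, 82, 110, 257, 236, 676, 955, 580 and 260 reads of H3K4me3 and 6, 10, 14, 30, 41, 96, 217, 113 and 44 of H3R2me2s. The peak thus sat in the seventh bin in both libraries, and the tail on its left was called for H3K4me3 throughout but for H3R2me2s only from the fourth bin on. The region at chr19:5796001-5805000 had 2973, 1500 and 557 reads in the order H3K4me3, combined mark, H3R2me2s. The region at chr1:14294001-14302000 had 2688, 1186 and 509, that at chr15:9454001-9461000 had 2570, 1271 and 462, and that at chr16:49853001-49861000 had 2562, 1267 and 508. Their H3R2me2s to H3K4me3 ratios lay between 0.359 and 0.398, all under the median of the members. These 5 were picked on H3K4me3 reads, the divisor of the ratio, and background reads were not subtracted. The part each has in the low ratios was not tested. With local background subtracted, net H3R2me2s per net H3K4me3 was 0.202 in the lowest of the 4 H3K4me3 classes and 0.229 in the highest. With genome-wide background the same classes had 0.236 and 0.239.

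The 2 highest ratios of H3R2me2s to H3K4me3 were in places where the libraries were nearly level with each other. At chr11:3042001-3049000 the ratio was 1.48 (1.26 to 1.74), from 269 H3R2me2s, 178 combined-mark and 365 H3K4me3 reads. Levels there were 16.3, 13.7 and 17.5 times background, and the surroundings stood at 4.25, 4.57 and 6.29. At chrY:2777001-2784000 the ratio was 1.33 (1.17 to 1.502), with 423, 382 and 640 reads and levels of 25.7, 29.3 and 30.7. One of its bins held 0 reads in all 3 libraries. The ratio was 1.01 (0.749 to 1.35) at chr3:126273001-126279000, 0.849 (0.664 to 1.08) at chr5:147488001-147496000 and 0.818 (0.629 to 1.06) at chr5:98308001-98315000. These 3 were weak and flat, with 71, 99 and 86 reads of H3R2me2s and 0 bins called for the combined mark.

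The regions named for the lowest H3R2me2s to H3K4me3 ratios had H3K4me3 levels from 21.7 to 51.3 times background. The quartiles of members were 29.9 and 55.4. The ratio was 0.171 (0.116 to 0.244) at chr18:86769001-86775000, with 33 reads of H3R2me2s beside 387 of H3K4me3. At chr13:83710001-83716000 it was 0.201 (0.161 to 0.2498). There the 6 bins held 49, 162, 272, 309, 94 and 31 reads of H3K4me3, 18, 41, 48, 51, 26 and 6 of the combined mark and 14, 21, 18, 17, 16 and 6 of H3R2me2s. H3K4me3 had a clear peak in this region while H3R2me2s was nearly level over its first 5 bins. The ratio was 0.240 (0.191 to 0.297) at chr15:35222001-35229000, 0.245 (0.195 to 0.304) at chr7:91025001-91031000 and 0.263 (0.221 to 0.311) at chrX:18738001-18746000. In the regions on chromosomes 18, 13, 15 and 7 the combined mark was low as well, at 0.539, 0.404, 0.428 and 0.438 of H3K4me3. The lower quartile of members was 0.724, and the region on chromosome X had 0.775.

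The combined mark was highest relative to H3K4me3 in compact, strong regions. The ratio was 1.22 (1.12 to 1.32) at chr7:107640001-107646000, 1.20 (1.11 to 1.30) at chr7:17366001-17372000 and 1.19 (1.09 to 1.30) at chr12:12944001-12950000. The last had a pair of peaks, with 65, 246, 102, 271, 95 and 31 reads of the combined mark and 17, 104, 49, 91, 46 and 20 of H3R2me2s over its 6 bins. Both marks dipped in the third bin and rose again in the fourth. The lowest ratios were in weak regions, at 0.280 (0.176 to 0.428) for chr1:172866001-172872000, 0.293 (0.208 to 0.403) for chr13:83866001-83874000 and 0.299 (0.215 to 0.408) for chr14:58689001-58695000. They held 25, 44 and 47 reads of the combined mark.

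The regions named for their ratios were ordered by the interval bound nearer to the median, not by the ratio itself, so that other members can have a more extreme ratio with fewer reads. H3R2me2s exceeded the combined mark most at chr12:12552001-12560000, with a ratio of 1.84 (1.36 to 2.53). Its 8 bins held 11, 4, 22, 22, 8, 14, 21 and 18 reads of H3R2me2s and 10, 8, 5, 13, 7, 6, 4 and 14 of the combined mark, so that 4 bins were called for the first and 0 for the second. H3K4me3 was low there, between 26 and 80 reads per bin. The region at chr11:3042001-3049000 was next by that bound at 1.56 (1.28 to 1.89), and chr12:115416001-115423000 came after it at 1.69 (1.17 to 2.45). The lowest by their upper bound were 0.335 (0.281 to 0.398) at chr4:147843001-147849000, 0.342 (0.294 to 0.397) at chr13:31897001-31905000 and 0.343 (0.290 to 0.403) at chr10:114819001-114825000. These 3 had 1150, 1325 and 1291 reads of H3K4me3. The lowest ratio itself was 0.318 (0.208 to 0.473), at chr18:86769001-86775000, with 33 H3R2me2s and 107 combined-mark reads.

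**Figure D5:**
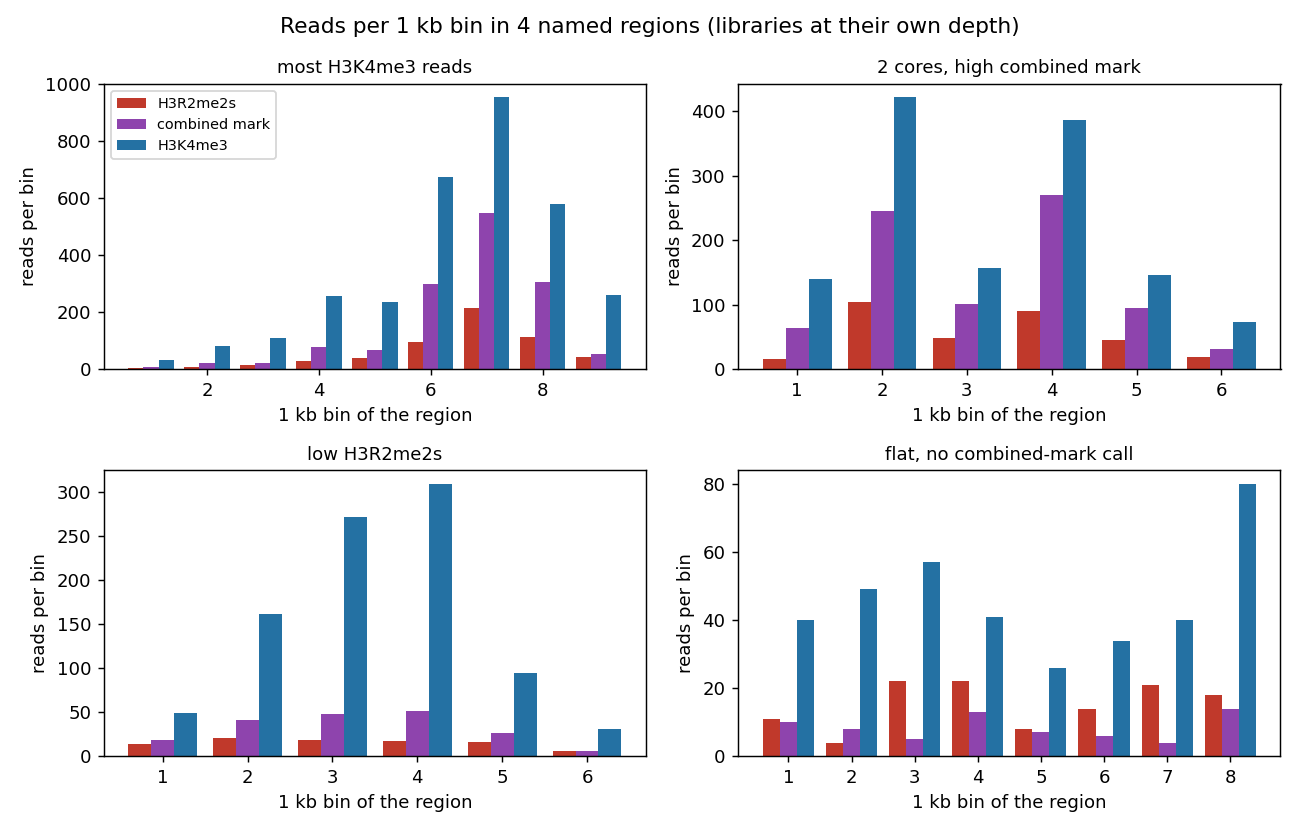
Reads per 1 kb bin of H3R2me2s (red), the combined mark (purple) and H3K4me3 (blue) across 4 named regions, with libraries at their own depth and each panel on its own axis from 0. The region with most H3K4me3 reads (chromosome 2) peaks in the seventh bin in the 3 libraries, one on chromosome 12 has a pair of peaks, that on chromosome 13 has 92 reads of H3R2me2s beside 917 of H3K4me3, and the flat one on chromosome 12 has 0 bins called for the combined mark.

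There were 32 members with no bin called for H3R2me2s and 32 with none called for the combined mark, of which 9 lacked both. The strongest without an H3R2me2s call was at chr10:80391001-80397000, where the 6 bins held 12, 14, 12, 5, 12 and 11 reads of H3R2me2s and 53, 66, 108, 41, 72 and 58 of H3K4me3. Of these bins 5 held 11 to 14 reads, just under the limit of 15, and the level was 4.67 times background. The next were the chromosome 18 region named above, at a level of 2.34, and chr6:108141001-108150000, at 4.34. Those without a combined-mark call were led by chr12:12552001-12560000, at a level of 4.50, followed by chr2:164191001-164199000 at 4.77 and chr5:12578001-12584000 at 5.28. A region without a call was thus not shown to lack the mark.

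The regions were spread over all chromosomes. Members made up 9.37% of H3K4me3 regions on the autosomes, from 7.48% on chromosome 16 to 10.9% on chromosome 11. On chromosome X they made up 4.85% (24 of 495), and background reads per bin there were 0.510, 0.530 and 0.534 of the autosomal value for H3R2me2s, the combined mark and H3K4me3. The limit of 25 reads is therefore harder to reach on chromosome X, and the part this has in the lower share was not tested. The 24 members on X had median ratios of 0.348 for H3R2me2s to H3K4me3 and 0.841 for the combined mark to H3K4me3, beside 0.403 and 0.827 on the autosomes. These ratios include background reads, which were fewer on X, and the part this has in the lower H3R2me2s ratio was not tested. Chromosome Y held 1 member, the region named above.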

How the data were processed

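The deposited files list mapped reads of 39 bases, and the reads counted from them here are raw counts, not scaled by the authors. Reads lie on mm9, per the submitters' processing notes. The aligner and the handling of repeated reads are not given in the sources used here. Limits for calling were 4 times the mean of bins with a read, or, where larger, the count at which the Poisson tail drops below 1e-06. For H3K4me3 the limit was set at 25 reads by the rule for members. The region calling and the net ratios by bin rank were tested on simulated data with an even background. The simulated regions had no raised surroundings, so the choice between local and genome-wide background was not tested. CPM ratios and outer-bin shares were not part of that test. The members, classes and named regions were chosen with earlier results of these data known. Named regions were those with most H3K4me3 reads, with the highest and lowest CPM ratios (ordered by whichever interval bound was closer to the median), and those without a call that had most H3K4me3 reads. The rule for genes and cell type markers was not used, because no mm9 annotation was used here. Alternatives changed the read shift, repeated reads, bin grid, joining, limits, depth, chromosomes, scaling and background. Python 3.11.15, numpy 2.4.6 and scipy 1.17.1 were used.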

Additional observations from a re-analysis of the deposited data

How the results depend on the processing

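Across 13 settings 120 values were recomputed. In 73 the change stayed within the value's interval, its SD over autosomes or, for the count, 1.5 times, and 46 moved more. One reversed. With the genome-wide background, the fold from 6th to highest bin of H3R2me2s per H3K4me3 was 0.960 in place of 1.23, and that of the combined mark per H3R2me2s was 1.72 in place of 1.44. Moving reads by 0 or 150 bp, moving the bin grid, leaving out chromosomes X and Y, and ranking bins on separate reads moved no value beyond these limits. The fold results, the local background and the ranking on separate reads were added after seeing the data. Values that moved are given here in the order H3R2me2s calls and combined-mark calls (percent of members), the median ratios of H3R2me2s to H3K4me3, the combined mark to H3K4me3 and H3R2me2s to the combined mark, and outer-bin shares (percent) of H3R2me2s, the combined mark and H3K4me3. With joining across 2 uncalled bins they were 96.9 and 96.6, 0.407, 0.815 and 0.490, and 11.6, 8.11 and 11.9. With joining only of adjacent bins they were 99.3 and 99.4, 0.396, 0.836 and 0.470, and 9.61, 6.08 and 9.67. At equal depth they were 98.96 and 98.9, 0.396 and 0.474 without the second ratio, and 11.4, 8.18 and 12.5. At 8 times the mean there were 536 members, all (100%) with a combined-mark call. Their ratios were 0.381, 0.848 and 0.449, their outer shares 14.0, 10.8 and 16.1, and the folds 1.19 for the combined mark per H3R2me2s and 1.58 per H3K4me3. With repeated reads counted once, combined-mark calls were 98.7, the first 2 ratios 0.425 and 0.872, the outer share of H3K4me3 11.8, and the folds per H3K4me3 1.38 for H3R2me2s and 1.94 for the combined mark. Scaled to background reads the ratios were 0.254, 0.679 and 0.369. With local background the outer shares were 8.24, 5.94 and 9.87. No paired analysis was possible because there was a single library for each antibody, so none could be omitted either. H3R2me2s had the fewest reads, so its weak bins are the least certain.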
